A study of Mus musculus with 6 samples.

Results

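The genes described here encode nuclear subunits and assembly factors of respiratory complexes II, III, IV and V. They were chosen by name, as the probe sets with 1 gene symbol beginning with Sdha to Sdhd, Uqcr, Cox followed by a number, or Atp5. Another 10 cytochrome c oxidase genes that come in isoforms were left out, and each gene is represented by its probe set of the highest mean over all arrays. This gave 48 genes of the 18193 named by a single symbol on the array. They comprise 4 subunits of complex II, 8 of complex III, 7 of complex IV, 17 of complex V and 12 assembly factors. The genes were matched by name alone, and signal decided only which probe set stood for a gene. The naming rule itself was set with earlier results of these data known.

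Thyroids were microdissected from mice at postnatal day 15. There were 3 arrays from Slc26a4 knockouts (samples 2, 4 and 6) and 3 from Slc26a4 heterozygotes (samples 1, 3 and 5), so the mice of both groups carried at least 1 mutated allele of Slc26a4, and no wild-type thyroid was compared. Slc26a4 encodes pendrin, an anion exchanger of the thyroid's follicular cells, and the comparison asks which transcripts differ when pendrin is lost altogether. How the allele was made, the strain, the sex and whether each RNA came from 1 animal or several are not stated in the labels. The p-values therefore speak only of the spread over these 6 samples, which may be technical. The Slc26a4 probe set read 7.29, 2.10 and 15.7 on the knockout arrays and 5.0, 4.59 and 12.1 on the heterozygous arrays. All 6 lay under the brightest bacterial control, 22.9, and do not check the genotypes.

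The respiratory chain of mitochondria passes electrons from nutrients to oxygen and pumps protons out of the matrix. Complex II, succinate dehydrogenase, also works in the citric acid cycle, complex III hands electrons to cytochrome c, complex IV (cytochrome c oxidase) reduces oxygen, and complex V, the ATP synthase, makes ATP as protons flow back. In thyrocytes this ATP runs the sodium pump whose gradient drives iodide uptake. In brown fat, a tissue dense in mitochondria, the uncoupling protein Ucp1 lets protons bypass complex V and heat is released.

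None of these genes passed the test between knockout and heterozygous thyroids, and most of them varied more within each genotype than between the genotype means. Of the 48 genes, 46 passed the filter on dim probe sets, and 0 of the 46 were called at an adjusted p under 0.05, where 0.0% of all 27022 probe sets tested were called (limma, adjusted p = 1.0 for each of the 46). At an unadjusted p under 0.05 there were 0 as well, against 0.511% of all probe sets tested. The knockout signals lay wholly above or below the heterozygous ones for 0 of the 46, against 3.68% of all probe sets tested (1.64% higher and 2.04% lower in knockouts). The 2 genes under the filter were Cox7b2 and Cox8c, isoforms known from testis. Cox7b2 read 0.581 to 10.04 over the 6 arrays and Cox8c 3.46 to 23.4.

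The log2 differences, knockout minus heterozygous, ran from -0.15 for Atp5g1 to 0.28 for Cox7c, with a median of 0.02 over the 46 genes and -0.0021 over all probe sets tested. They were above 0 for 29 of the 46 (63.0%), against 49.3% of all probe sets tested. That count rested on single arrays. It was 43 without knockout 2 and 41 without heterozygous 5, but 18 without knockout 4, 13 without knockout 6 and 7 without heterozygous 3. For 40 of the 46 the 95% interval lay within 0.5 log2 units of 0 on either side, a 1.41-fold difference.

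**Figure D1:**
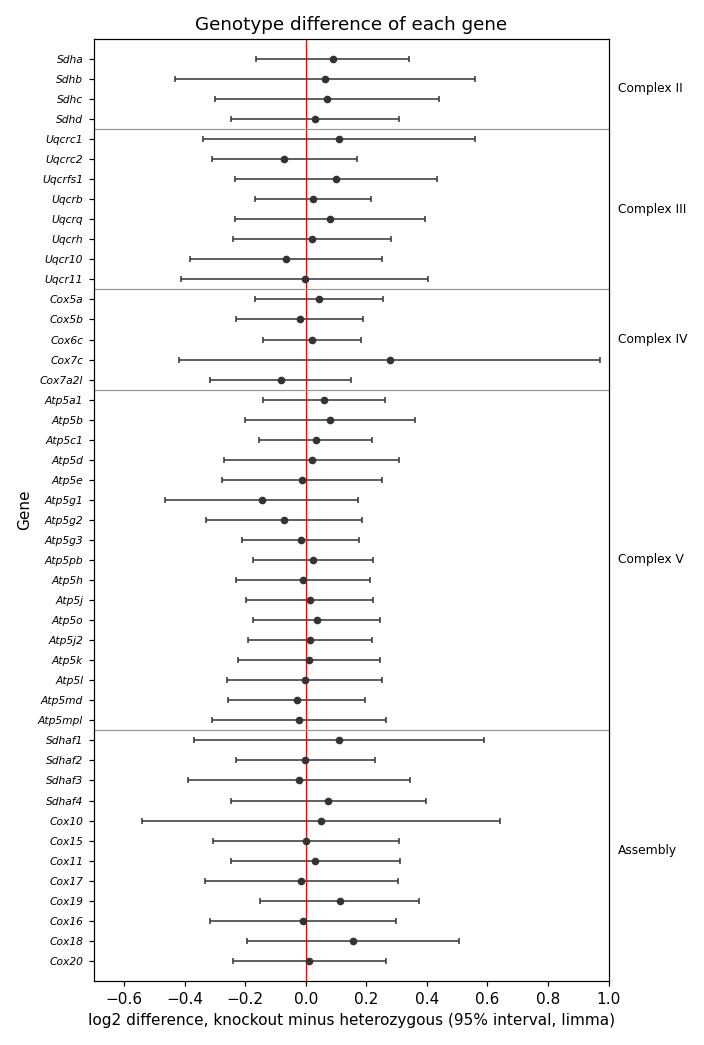
Log2 difference (knockout minus heterozygous) of each of the 46 tested genes, by complex, on the x axis; points are limma estimates and bars 95% intervals from 3 arrays a genotype. Every interval includes 0, and the widest, that of Cox7c, reaches 0.97.

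All 4 subunits of complex II had the higher knockout mean, and all 4 were low on the same arrays. Sdha, the flavoprotein that oxidises succinate, read 6890.1, 8174 and 8156 on knockouts 2, 4 and 6 and 7638, 6313 and 7918 on heterozygous 1, 3 and 5. Knockout 2 and heterozygous 3 were the lowest of their groups, and the groups overlapped. The means were 7740.0 ± 736 in knockouts and 7289.8 ± 857 in heterozygotes (SD, n = 3 each), a log2 difference of 0.09 ± 0.11 (SE) with a 95% interval of -0.16 to 0.34 (limma, unadjusted p = 0.44, adjusted p = 1.0). Its iron-sulfur partner Sdhb read 3728, 5773 and 6424 on the knockout arrays and 4471, 4364 and 6216 on the heterozygous arrays. Heterozygous 5 thus stood closer to knockouts 4 and 6 than to the other heterozygotes. The highest of the 6 Sdhb signals was 1.72 times the lowest. The membrane anchors did likewise, Sdhc with 3488, 4827 and 5151 in knockouts and 4176, 3706 and 4832 in heterozygotes. Sdhd read 6976, 9096 and 9262 in knockouts and 8196, 7545 and 8940.1 in heterozygotes. The log2 differences of the 4 subunits lay between 0.03 and 0.09.

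In complex III the core subunit Uqcrc1 read 2837, 4222 and 4552 on the knockout arrays and 3511, 2947 and 4201 on the heterozygous arrays. Knockout 2 and heterozygous 3 were the lowest, and heterozygous 5 lay close to knockout 4. Its log2 difference was 0.11 ± 0.19 (SE), with an interval of -0.34 to 0.56 (limma, adjusted p = 1.0). The Rieske iron-sulfur protein Uqcrfs1, through which electrons leave the quinol site, had the smallest p among the genes of complex III with the higher knockout mean. It read 5675, 7258 and 7522 in knockouts and 6288, 5382 and 7449.9 in heterozygotes, a log2 difference of 0.10 with an interval of -0.24 to 0.43 (limma, unadjusted p = 0.514). The second core subunit, Uqcrc2, had the smallest p of the complex in the other direction, with 6508, 7977 and 7495 in knockouts and 8351, 6855 and 7878 in heterozygotes (log2 difference -0.07, interval -0.31 to 0.17). It was 1 of the 4 genes that were highest on heterozygous 1. Of the remaining 5 accessory subunits, Uqcrb, Uqcrq and Uqcrh had log2 differences of 0.03, 0.08 and 0.02, and Uqcr10 and Uqcr11 of -0.07 and -0.0031.

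In complex IV the subunit Cox5a read 9268, 10618 and 10934 in knockouts and 10117, 9044 and 10732 in heterozygotes. Knockout 2 and heterozygous 3 were again the lowest, within a span of 1.21 times from the lowest array to the highest. Its log2 difference was 0.04 ± 0.09 (SE; limma, interval -0.17 to 0.25, adjusted p = 1.0). Cox6c was steadier still by the probe set used, at 10489.5, 11605 and 10614 in knockouts and 10804, 10152 and 11308 in heterozygotes. Its range was 0.19 log2 units, and 0.28 by its other tested probe set. Cox7c, another small structural subunit, varied most of the 46, with 265, 349.8 and 667 in knockouts and 339, 291 and 346 in heterozygotes. Its mean of 427 ± 212 in knockouts against 325 ± 29.99 in heterozygotes (SD, n = 3 each) rested on knockout 6, without which the log2 difference was -0.09 in place of 0.28. Both tested probe sets of Cox7c were dim, and on both knockout 6 was highest. Cox7a2l, which joins complex III to complex IV in supercomplexes, read 4921, 6144 and 5725 in knockouts and 6071, 5458 and 6218 in heterozygotes (log2 difference -0.08, interval -0.32 to 0.15). Cox5b had a log2 difference of -0.02.

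Complex V is built of a catalytic head, a membrane rotor and stalks that join them. The head's alpha subunit Atp5a1 read 9648, 10891 and 10544 in knockouts and 10762, 8907 and 10226 in heterozygotes, a log2 difference of 0.06 with an interval of -0.14 to 0.26 (limma, adjusted p = 1.0). The catalytic beta subunit Atp5b read 7206, 9523 and 9081 in knockouts and 8318, 7196 and 8812 in heterozygotes. Knockout 2 and heterozygous 3 were again lowest in both genes. The gamma subunit Atp5c1, the central shaft, was among the 3 steadiest genes by the probe sets used, with 8031, 9206 and 8467 in knockouts and 8541, 7751 and 8830.5 in heterozygotes. Its range was 0.25 log2 units by that probe set and 1.40 by its other tested one, which was far dimmer. Over the 17 genes of this complex 9 log2 differences were above 0 and 8 below, with a median of 0.01. Those of the outer stalk (Atp5pb, Atp5h, Atp5j and the oligomycin-sensitivity protein Atp5o) lay between -0.0079 and 0.04, and those of the central stalk subunits Atp5d and Atp5e and the 5 small membrane subunits (Atp5j2, Atp5k, Atp5l, Atp5md and Atp5mpl) between -0.03 and 0.02.

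The rotor's subunit c, the ring through which protons pass, is made from 3 genes that encode the same mature protein behind different import leaders, and these 3 did not follow the same arrays. Atp5g1 read 2770.4, 2359.6 and 2152 on knockouts 2, 4 and 6 and 3166, 2486 and 2425 on heterozygous 1, 3 and 5. It was highest on heterozygous 1 and knockout 2 and lowest on knockout 6, unlike the subunits above. Its log2 difference was -0.15 ± 0.14 (SE) with an interval of -0.46 to 0.17, the smallest p of the 46 genes (limma, unadjusted p = 0.321, adjusted p = 1.0). Atp5g2 read 2749.9, 3527 and 3489 in knockouts and 3452, 3275 and 3475 in heterozygotes, so that knockout 2 alone stood apart. Atp5g3 read 7602, 7669.7 and 7481 in knockouts and 8396, 6882 and 7823 in heterozygotes, with the knockout arrays between the heterozygous ones. A second, dim probe set of Atp5g1 read 55.7, 48.1 and 55.3 in knockouts and 70.6, 73.1 and 73.0 in heterozygotes. Of the 38 other tested probe sets of these genes 1, this one, had no overlap, a share below the 3.68% of all probe sets tested (limma, log2 difference -0.35, unadjusted p = 0.116, adjusted p = 1.0).

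**Figure D2:**
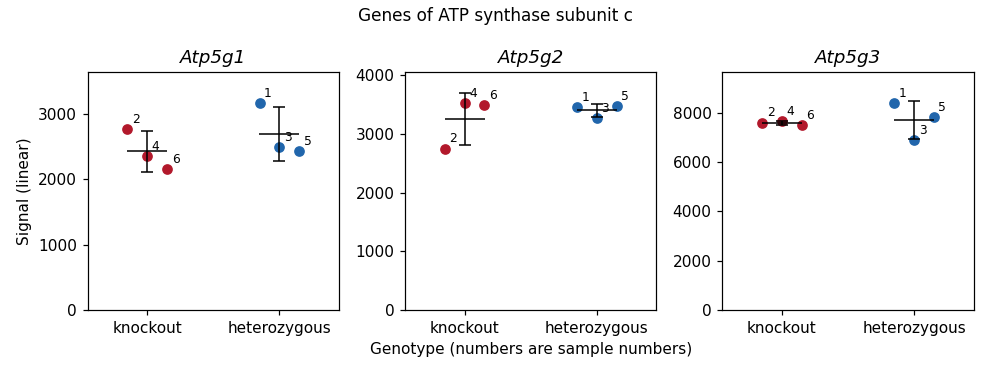
Linear signal of the 3 genes of ATP synthase subunit c in knockout (left, red) and heterozygous (right, blue) thyroid, with sample numbers beside the points; bars give mean ± SD (n = 3). Atp5g1 is highest on heterozygous 1 (3166) and lowest on knockout 6 (2152), and the 3 genes order the arrays differently.

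Among the 12 assembly factors, Cox18, which helps insert a mitochondrially made subunit of complex IV into the inner membrane, had the smallest p. It read 651, 721 and 659 in knockouts and 557, 539 and 739 in heterozygotes, a log2 difference of 0.16 ± 0.15 (SE; limma, interval -0.19 to 0.51, unadjusted p = 0.335). Heterozygous 5 exceeded every knockout array. Cox10, which makes the heme of complex IV from protoheme, read 319.8, 387 and 424 in knockouts and 302, 281 and 549.8 in heterozygotes, so its widest spread was within the heterozygotes. Sdhaf1, needed for the iron-sulfur clusters of Sdhb, read 649, 864 and 1132 in knockouts and 714, 757 and 934 in heterozygotes. Sdhaf2, which attaches flavin to Sdha, was the steadiest gene of all 46 by the probe sets used, with 1212, 1211 and 1198 in knockouts and 1259, 1129 and 1239 in heterozygotes. Its range was 0.16 log2 units by that probe set and 0.38 by its other tested one. Sdhaf3 had a log2 difference of -0.02 (interval -0.39 to 0.34). The copper carriers Cox17 and Cox19 had log2 differences of -0.02 and 0.11, and the other 5 factors (Sdhaf4, Cox11, Cox15, Cox16 and Cox20) lay between -0.0084 and 0.07.

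Most of these genes were low on the same arrays and high on the same arrays. The gene's own mean over the 6 arrays was exceeded by 3 of the 46 genes on knockout 2, 43 on knockout 4 and 39 on knockout 6, and by 23 on heterozygous 1, 0 on heterozygous 3 and 43 on heterozygous 5. Among all probe sets tested the shares were 47.5%, 44.6% and 53.0% on the knockout arrays and 44.8%, 59.3% and 48.9% on the heterozygous arrays. Heterozygous 3 was thus below the mean for all 46 genes although more probe sets of that array lay above their mean than below. Knockout 2 was the lowest array for 20 genes and heterozygous 3 for 23. The highest was knockout 4 for 13, knockout 6 for 13, heterozygous 5 for 16 and heterozygous 1 for 4. A joint pattern, low on knockout 2 and heterozygous 3 and high on knockouts 4 and 6 and heterozygous 5, was read from these genes and held for 35 of them, against 9.73% of all probe sets tested. By sample number, samples 2 and 3 were thus low and samples 4, 5 and 6 high, with 23 of the 46 genes above their mean on sample 1. The labels do not say what the sample numbers stand for, and any part of sample order in the pattern was not tested. The 11 exceptions were Uqcrb, Cox5b, Cox6c, Cox7c, Cox7a2l, Atp5g1, Atp5g3, Atp5pb, Sdhaf2, Sdhaf3 and Cox18.

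**Figure D3:**
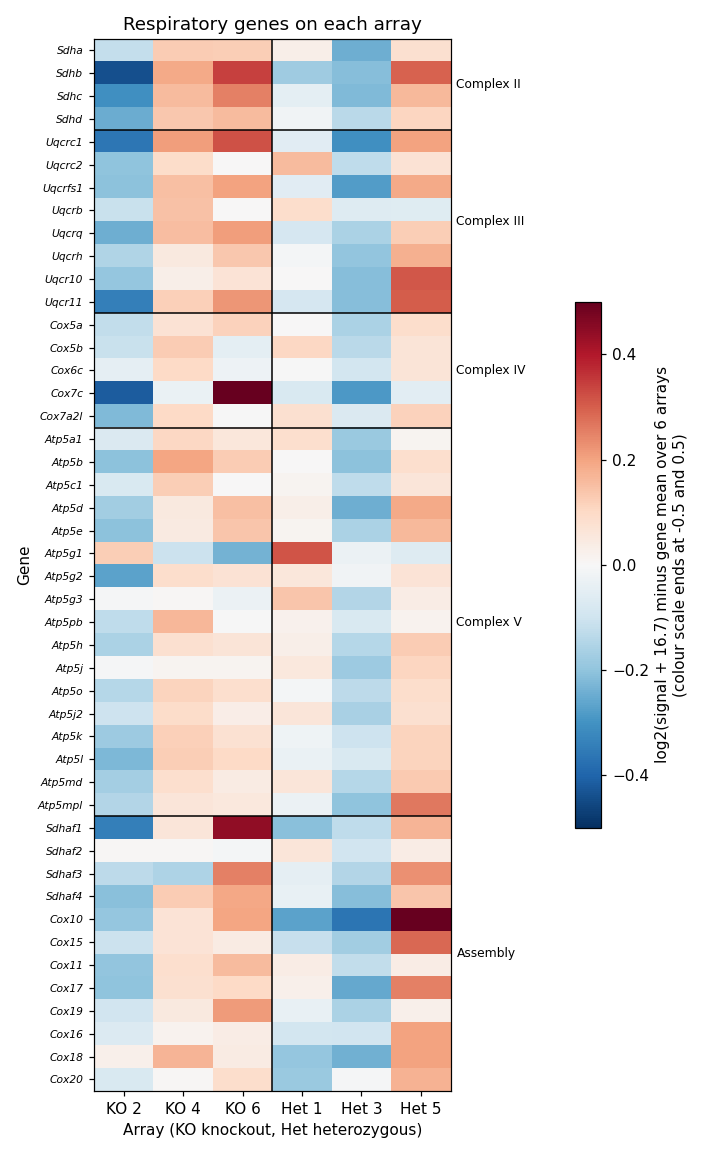
Heat map of the 46 tested genes (rows, by complex) on the 3 knockout and 3 heterozygous arrays (columns); colour is the log2 value minus the gene's mean over the 6 arrays. The columns of knockout 2 and heterozygous 3 are blue for most genes, below the mean for 43 and 46 of 46, and Atp5g1 is above its mean on knockout 2 and below it on knockouts 4 and 6.

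The span of this array pattern was widest for complex II (0.48 log2 units) and narrowest for complex IV (0.23), a difference that was not tested. For complex II the median deviation from the gene's mean was -0.28, 0.15 and 0.21 log2 units on knockouts 2, 4 and 6 and -0.03, -0.22 and 0.14 on heterozygous 1, 3 and 5. For complex III it was -0.20, 0.13 and 0.17 in knockouts and -0.03, -0.21 and 0.18 in heterozygotes. The span was smaller for complex V, with -0.15, 0.09 and 0.06 in knockouts and 0.03, -0.14 and 0.09 in heterozygotes, and for complex IV, with -0.12, 0.10 and -0.0032 in knockouts and 0.0035, -0.13 and 0.06 in heterozygotes. The assembly factors, the dimmest of these groups per gene, had -0.12, 0.06 and 0.13 in knockouts and -0.07, -0.15 and 0.19 in heterozygotes. Their span of 0.34 lay between those of complexes III (0.39) and V (0.24). Any part of brightness in the spans of the groups was not tested. Gene by gene, the range over the 6 arrays was smaller for brighter genes (Spearman's rho = -0.55 across the 46 genes, which share the same 6 arrays and are no independent replicates, and the same over all probe sets tested). It also differed between probe sets of the same gene. Of 27 genes with more than 1 tested probe set, the dimmest had the larger range in 22. Where the dimmest had a mean signal over 1000, this held for 14 of 16 genes, a limit chosen after the values were seen. For Sdhd the range was 0.41 log2 units by the probe set used and 0.78 by a dimmer probe set, which read 2586, 4025 and 4447 in knockouts and 3369.8, 3053 and 4232 in heterozygotes. For Cox5a it was 0.27 and, by a dimmer probe set, 0.51. What sets the difference between probe sets of a gene was not tested. The sign of the genotype difference also varied among them, and 10 of the 27 genes had opposite signs on their brightest and dimmest tested probe sets. Of the genes described above these were Sdha (-0.04 on the dimmest), Uqcrc2 (0.01), Atp5g2 (0.07), Atp5a1 (-0.01), Cox6c (-0.02) and Sdhaf2 (0.05), beside Uqcr10, Cox5b, Atp5h and Cox15 among the rest.

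**Figure D4:**
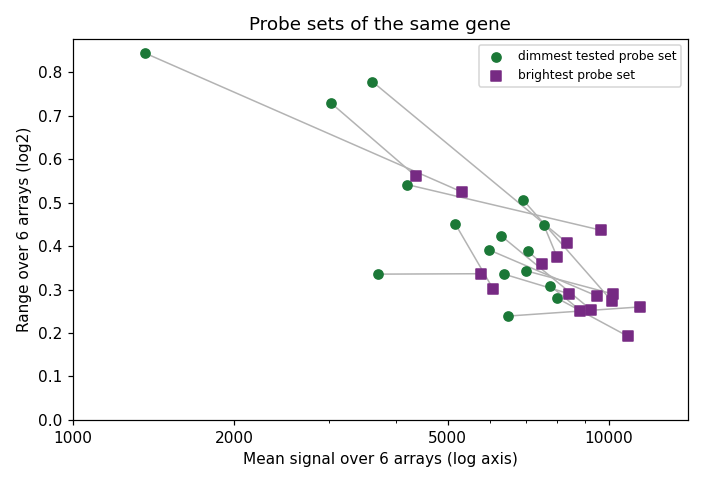
Range over the 6 arrays (log2 units, y axis) against mean signal (log axis) for the dimmest (circles) and brightest (squares) tested probe sets of the 16 genes whose dimmest probe set averaged over 1000; lines join probe sets of a gene. The dimmer probe set has the larger range in 14 of the 16.

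Several markers of brown fat, though not all, were low and high on the same arrays. Ucp1 read 9211, 11977 and 11253 on knockouts 2, 4 and 6 and 10639, 9816 and 11159 on heterozygous 1, 3 and 5. Cidea, a lipid droplet protein of brown fat, read 4091, 6722 and 6849 in knockouts and 5026, 4770.2 and 6526 in heterozygotes, and the proton channel Otop1 read 2587, 4409 and 4348 in knockouts and 2903, 2479.9 and 3869 in heterozygotes. Knockout 2 and heterozygous 3 were the lowest of their groups in these 3 genes. Elovl3, an enzyme that lengthens fatty acids, did not follow, being highest on knockout 2 and lowest on heterozygous 5, and Ppargc1a was lowest of the heterozygotes on heterozygous 1. Of 8 brown fat markers 7 had a probe set with a single symbol and 6 passed the filter. The summed signal of the 7 was 23148, 32978 and 32659 on the knockout arrays and 26789, 24095 and 31027 on the heterozygous arrays. The list includes the oxidase isoform Cox7a1 and the coactivator Ppargc1a, and its marker Zic1 read under 22.9 on all arrays but heterozygous 5, being nearest to 0 on knockout 2 (0.145) and heterozygous 1 (0.198). All 6 tested markers had the higher knockout mean, as did 49.3% of all probe sets tested. Their median log2 difference was 0.17, and 0 were called (limma). Elovl3 alone did not overlap, at 285, 229 and 271 in knockouts and 214, 141 and 93.9 in heterozygotes (limma, unadjusted p = 0.0177, adjusted p = 1.0). Of all probe sets tested, 1.64% lay wholly higher in knockouts and 0.511% had an unadjusted p under 0.05 (limma). The part of brown fat in the array pattern of the respiratory genes was not tested, and in whole tissue fewer cells of a type cannot be told apart from less RNA per cell.

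By the sign of the median, 3 other marker lists went the same way, in part with medians near 0. The median deviation of 4 tested adipocyte markers was -0.15, 0.03 and 0.24 on knockouts 2, 4 and 6 and 1.4e-05, -0.42 and 0.15 on heterozygous 1, 3 and 5. That of 6 fibroblast markers was -0.17, 0.13 and 0.06 in knockouts and -0.03, -0.03 and 0.03 in heterozygotes, and that of 2 tested erythroid markers was -0.26, 0.70 and 0.30 in knockouts and -0.97, -0.31 and 0.55 in heterozygotes. All 3 lists were below 0 on knockout 2 and heterozygous 3 and above 0 on knockouts 4 and 6 and heterozygous 5. Over all probe sets tested the medians ran from -0.02 to 0.04 on the 6 arrays. Beside these, the fibroblast medians on the heterozygous arrays and the adipocyte median on knockout 4 were near 0. The erythroid list was lowest on heterozygous 1. The part of these lists in the respiratory pattern was not tested either.

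Skeletal muscle, thyrocyte, thymus and parathyroid markers had other orders. Skeletal muscle markers (10 of 10 tested) had summed signals of 8110 to 34368 in knockouts and 20646 to 34189 in heterozygotes, and their median deviation was 0.64, -0.11 and -1.46 on knockouts 2, 4 and 6 and 0.61, 0.23 and -0.18 on heterozygous 1, 3 and 5. That is the order in which Atp5g1 stood within each genotype. The muscle isoform Cox6a2, which is not among the 48, also had it, with 1147, 538 and 257 in knockouts and 1312, 884 and 615 in heterozygotes. Whether muscle has a part in the Atp5g1 signal was not tested. The 9 thyrocyte markers tested summed to 28739 to 32423 in knockouts and 28478 to 33923 in heterozygotes, and none of the 9 was at 0. Their median deviation was 0.14, -0.08 and -0.0089 on knockouts 2, 4 and 6 and 0.14, -0.0044 and -0.15 on heterozygous 1, 3 and 5. On knockouts 2 and 4 and heterozygous 5 the muscle and thyrocyte medians thus had the opposite sign to that of complexes II to V. On knockout 6 and heterozygous 3 the muscle median was also opposite, while the thyrocyte median was close to 0 (-0.0089 and -0.0044). Whether the medians of these lists are linked was not tested. Thymus and T cell markers (3 of 9 tested) were high on knockout 4 alone. The summed signal of the 8 with a probe set was 3522 there, against 133 to 154 on the other knockouts and 143 to 197 in heterozygotes. Parathyroid markers were low on knockout 6 (summed signal 3406) and heterozygous 1 (990). For the adipocyte, fibroblast, cartilage and erythroid lists the median log2 differences were 0.06, 0.04, 0.02 and 0.49, and 0 genes were called in any list (limma). Of the 2 tested erythroid genes 1 had an unadjusted p under 0.05 (limma), as did 0.511% of all probe sets tested.

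Other genes of mitochondrial energy supply, listed by function, stood beside the complexes on the same arrays. The 34 tested subunit genes named for complex I had median deviations of -0.19, 0.10 and 0.10 on the knockout arrays and -0.03, -0.17 and 0.18 on the heterozygous arrays. The 15 tested citric acid cycle genes had -0.20, 0.15 and 0.13 in knockouts and -0.02, -0.18 and 0.14 in heterozygotes. No gene of these lists passed in either direction (0 higher and 0 lower in each, limma, against 0.0% of all probe sets tested). The knockout mean was the higher in 21 of 34 complex I genes, 8 of 14 electron carriers and exporters, 13 of 15 cycle genes, 15 of 16 further assembly factors, 6 of 12 transcriptional regulators and 6 of 10 oxidase genes of the isoform pairs. The share over all probe sets tested was 49.3%. Genes of a list share the same 6 arrays and are no independent replicates. Only the count over complexes II to V was repeated with an array left out, where it rested on single arrays.

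**Figure D5:**
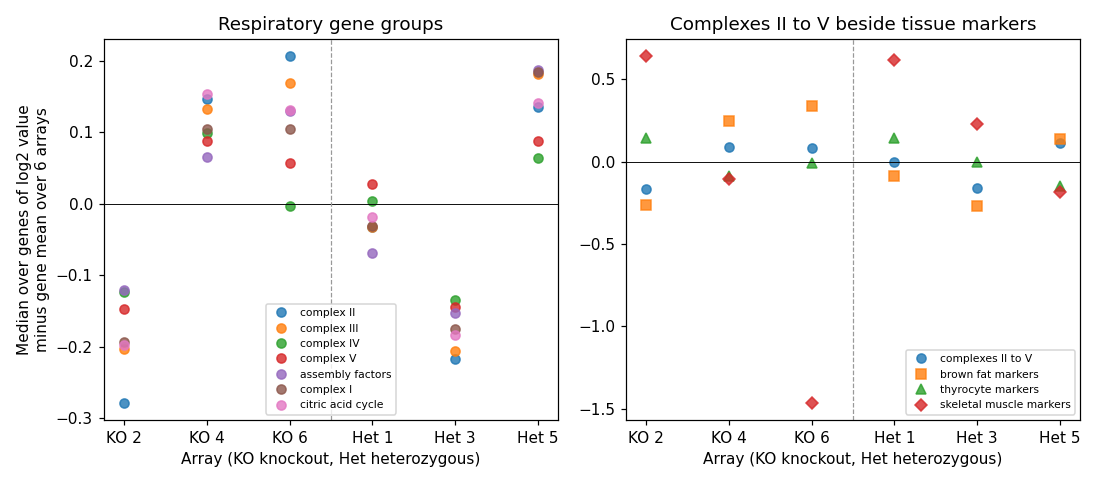
Median over genes of the log2 value minus the gene's mean over 6 arrays (y axis, log2 units), per array with knockouts left and heterozygotes right; the left panel shows respiratory and citric acid cycle genes and the right panel complexes II to V beside tissue markers. The respiratory groups and the brown fat median are below 0 on knockout 2 and heterozygous 3, where complexes II to V are at -0.16 and -0.16, and muscle markers are at -1.46 on knockout 6.

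Among these energy lists the smallest p was in the further assembly factors. Atpaf1, a chaperone that builds the catalytic head of complex V, read 1504, 1569.9 and 1620.2 in knockouts and 1304, 1303 and 1446 in heterozygotes, without overlap. Its log2 difference was 0.21 ± 0.10 (SE; limma, interval -0.02 to 0.44, unadjusted p = 0.0653, adjusted p = 1.0). In this list 3 of 16 genes did not overlap, Atpaf1, Sco1 and Coa6, all with the higher knockout values, where 1.64% of all probe sets tested lay wholly higher in knockouts. Ttc19, a complex III factor, read 734, 713 and 631 in knockouts and 879, 728 and 829 in heterozygotes (log2 difference -0.22, interval -0.52 to 0.07). Among the regulators, Tfb1m, which methylates mitochondrial ribosomal RNA, read 331, 315 and 324 in knockouts and 364, 365 and 407 in heterozygotes, again without overlap, as 2.04% of all probe sets tested were in that direction (log2 difference -0.22, limma, unadjusted p = 0.146, adjusted p = 1.0). Ppargc1a, the coactivator of mitochondrial biogenesis, read 1521, 2219.6 and 2385 in knockouts and 1620.5, 1656 and 1797 in heterozygotes (log2 difference 0.24, interval -0.14 to 0.63).

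In the remaining lists the genes of smallest p had unadjusted p between 0.192 and 0.458 (limma). Their log2 differences were 0.23 for Ndufa4l2 and -0.11 for Ndufs7 among the genes named for complex I, and 0.26 for the ubiquinone-making enzyme Coq3 and -0.08 for the phosphate carrier Slc25a3. In the citric acid cycle list they were 0.16 for Dlat, a pyruvate dehydrogenase subunit, and 0.10 for the succinyl-CoA ligase subunit Suclg2. Of the oxidase isoforms, Cox6a2 had -0.70 and the lung isoform Cox4i2 had 0.17. The 12 symbols searched for mitochondrially encoded subunits matched no probe set with a single symbol, and those transcripts were not analysed here.

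Most of these genes were low and high on the same arrays. Their promoter windows were searched for short motifs of factors known to act on respiratory genes. RefSeq windows of 300 bases in GRCm38.p6, mostly upstream of an annotated start, were matched by symbol for 38 of the 48 genes, and all 4 motifs were searched on both strands. The NRF1 motif, GCGCA and GCGC with any base between them, was present for 11 of the 38 (28.9%), against 5.19% of 27025 genes with a window. The ETS motif CCGGAAG, bound by GABPA, was present for 17 (44.7%, against 9.93% of all), the YY1 motif AAGATGGC for 5 (13.2%, against 3.19%) and TNAAGGTCA, the motif of the estrogen-related receptors, for 2 (5.26%, against 1.43%). The 27025 genes are all those with a window. They were not matched to the 38 in base composition or windows per gene, and the difference in shares was not tested. A match is a run of letters and not a shown binding site, and its absence says only that these letters are not in this window. None of the marked matches in the windows printed here overlaps a match of another motif.

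The windows of the 3 marker genes, of Sdhd and of Atp5g1 are shown, 5′ to 3′ on the gene's strand, with matches in capitals. Sdhd was added as the window that holds 3 of the 4 motifs, and Atp5g1 for its different order of arrays. The Sdha window (chr13:74350191-74350490, minus strand) holds 3 NRF1 matches and that of Uqcrc1 (chr9:108936398-108936697, plus strand) 2. The Sdhd window (chr9:50603800-50604099, minus strand) holds, in order, an NRF1, an ETS and an estrogen-related receptor match. The windows of Cox5a (chr9:57520982-57521281, plus strand) and Atp5g1 (chr11:96075582-96075881, minus strand) hold none. In RefSeq the Cox5a gene begins at 57517328, upstream of its window, which does not cover that start. Whether any motif is linked to the array pattern was not tested.
Sdha: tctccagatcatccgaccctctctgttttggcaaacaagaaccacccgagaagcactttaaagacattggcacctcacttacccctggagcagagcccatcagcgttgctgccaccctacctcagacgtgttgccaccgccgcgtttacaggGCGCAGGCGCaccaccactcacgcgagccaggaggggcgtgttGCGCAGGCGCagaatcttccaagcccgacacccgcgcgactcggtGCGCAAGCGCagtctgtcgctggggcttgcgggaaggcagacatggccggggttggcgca
Uqcrc1: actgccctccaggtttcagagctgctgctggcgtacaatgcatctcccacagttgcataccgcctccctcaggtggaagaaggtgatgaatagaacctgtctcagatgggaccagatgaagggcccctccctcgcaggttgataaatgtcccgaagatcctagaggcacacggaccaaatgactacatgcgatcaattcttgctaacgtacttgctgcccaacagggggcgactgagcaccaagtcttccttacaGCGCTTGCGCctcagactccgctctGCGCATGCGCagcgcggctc
Sdhd: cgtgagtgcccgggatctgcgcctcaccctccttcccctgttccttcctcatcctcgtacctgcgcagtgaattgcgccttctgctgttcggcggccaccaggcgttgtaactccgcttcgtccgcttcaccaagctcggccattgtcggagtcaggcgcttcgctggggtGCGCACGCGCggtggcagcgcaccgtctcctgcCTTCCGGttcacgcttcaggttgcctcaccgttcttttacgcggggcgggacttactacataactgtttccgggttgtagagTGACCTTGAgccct
Cox5a: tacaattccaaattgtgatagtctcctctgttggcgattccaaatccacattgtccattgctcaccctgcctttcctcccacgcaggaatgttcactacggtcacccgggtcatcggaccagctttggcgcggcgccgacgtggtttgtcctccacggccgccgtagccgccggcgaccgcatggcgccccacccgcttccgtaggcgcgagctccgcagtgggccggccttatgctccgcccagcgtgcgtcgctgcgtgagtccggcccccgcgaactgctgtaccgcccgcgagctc
Atp5g1: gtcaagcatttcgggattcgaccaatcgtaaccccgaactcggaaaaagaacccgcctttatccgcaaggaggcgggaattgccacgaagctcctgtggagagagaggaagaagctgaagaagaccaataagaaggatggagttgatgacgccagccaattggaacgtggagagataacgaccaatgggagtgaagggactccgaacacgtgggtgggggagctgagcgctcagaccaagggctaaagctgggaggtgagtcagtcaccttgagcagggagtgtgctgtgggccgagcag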

How the data were processed

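Thyroid RNA was amplified with an Ovation kit, per the labels. Signals came from GCOS, the array maker's software, per the submitters' processing notes. Its settings are unknown here. The deposited intensities are linear, 1 per probe set and array, and the mean after trimming 2% at each end was 500.002 on each array, so a difference shared by most transcripts would not show. The arrays' number limits precision.

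Genes were named from the platform annotation, and 0 of the 48 symbols differed from RefSeq GRCm38.p6. The pseudocount of 16.7, the 25th percentile of all signals, was added before taking log2, which understates differences of dim genes. After leaving out 64 control probe sets, the 27022 of 45037 with a mean log2 value above the 40th percentile (a signal of 43.5) were tested with limma 3.58.1 in R 4.3.3 (lmFit, eBayes with an intensity trend), with Benjamini-Hochberg adjustment over all of them. In simulated data for this comparison, drawn for 27022 probe sets, the fit recovered 12% of 1.5-fold, 40% of 2-fold, 82% of 4-fold and 90% of 8-fold differences. It also called 6 probe sets that had not been moved. The moved probe sets were drawn from all those tested. Noise was drawn separately for each probe set, with none shared across an array as in the real data, so these rates may not hold for the genes described here.

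Named genes were the 3 markers, the subunit c genes, per group the smallest p in each direction, any without overlap, the 3 largest and 3 smallest ranges, those under the filter, and 2 of smallest p per related list; other genes are given to account for all 48 or were chosen after their values were seen. Members, lists and rules were chosen with earlier results of these data known. The labels give no batch. Other settings tried were normalization by quantiles or cyclic loess, a pseudocount 0.25 or 4 times as large, a filter at the 60th percentile or none, robust or trend-free eBayes, array weights, each array left out, and other probe sets of a gene. One of these, the dimmest tested probe set, was chosen after seeing the data.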

Additional observations from a re-analysis of the deposited data

How the results depend on the processing

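Under all 17 alternatives 0 of the genes passed the threshold (limma). The median log2 difference stayed within the spread between replicates, 0.14, and ran from -0.04 to 0.10 with an array left out and from 0.01 to 0.08 otherwise. The count of genes with the higher knockout mean ran from 7 to 43 with an array left out and from 29 to 40 otherwise. Array weights gave 40, quantile normalization 30 and cyclic loess 31. The cause was not tested.

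For the 18 named genes the sign turned 26 times with an array left out and 13 times otherwise, never across the threshold. With an array left out, the log2 differences that turned sign were Sdha -0.011 to 0.17, Uqcrc1 -0.023 to 0.32, Cox5a -0.024 to 0.12, Atp5g2 -0.13 to 0.045, Atp5g3 -0.096 to 0.048, Uqcrfs1 -0.016 to 0.23, Uqcrc2 -0.15 to 0.012, Cox7c -0.087 to 0.55, Cox7a2l -0.15 to 0.0059, Atp5a1 -0.020 to 0.12, Sdhaf3 -0.15 to 0.085, Sdhaf2 -0.049 to 0.029, Cox6c -0.026 to 0.057, Atp5c1 -0.022 to 0.078, Sdhaf1 -0.086 to 0.31, Cox10 -0.12 to 0.34. With the mean of all tested probe sets of the gene they were 0.0017 for Atp5g2, -0.0013 for Atp5a1, 0.022 for Sdhaf2 and -0.0023 for Cox6c. With the dimmest they were -0.040 for Sdha, 0.075 for Atp5g2, 0.012 for Uqcrc2, -0.0069 for Atp5a1, 0.046 for Sdhaf2 and -0.024 for Cox6c. Sdhaf2 was also 0.0024 with quantile normalization, 0.0069 with cyclic loess and 0.0030 with array weights. The cause was not tested. No paired analysis was possible because the genotypes share no sample number. With 3 arrays against 3, an exact permutation test of 1 gene cannot give a p under 0.1. Probe sets near the background of 22.9, as for Cox7b2 and Cox8c, allow no statement.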
